A study of Mus musculus with 3 samples.

Results

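Genes of T cells and of cytotoxic lymphocytes were examined in mouse spleen RNA measured against a reference RNA. The 9 genes were the co-receptors Cd4 and Cd8a, the receptor chains Cd3d and Cd247, the chromatin organiser Satb1, the signalling genes Lcp2 and Ptpn22, and the cytotoxic cell genes Nkg7 and Xcl1. Their probes were found by gene symbol in the annotation supplied with the platform, which gave 10 of the 16273 probes of the table: 2 for Satb1 and 1 for each of the other genes. Of these, 9 had a value on all 3 arrays, as did 11086 probes in all. The study hybridised 3 arrays with 2 colours each, and they form 1 group. Each array carried cRNA from purchased mouse spleen total RNA, labelled red (Cy5), against cRNA from Universal Mouse Reference RNA (UMRR), a purchased RNA pool, labelled green (Cy3), and both cRNAs went through 1 round of amplification. Strain, age and sex of the spleen donors are not stated in the labels.

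T cells recognise peptides held by MHC molecules through a receptor whose antigen-binding chains signal through the CD3 chains and the zeta chain. The co-receptors CD4 and CD8 bind MHC class II and class I and bring the kinase Lck to the receptor, and adaptors and phosphatases then pass on or damp the signal. Spleen is a lymphoid organ whose white pulp holds T cell zones around the arterioles, beside B cell follicles, and natural killer cells are found mainly in its red pulp.

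A positive log ratio was read as likely higher in spleen, although the array titles name the reference first (UMRR vs Spleen) and the numerator is not stated. This reading rests on the dyes with the customary order of red over green and on the signs of markers of other blood cells. Of 45 such markers, 25 had a probe and 20 were measured on all arrays, and 20 of 20 were positive (median 2.97): 4 of B cells (median 3.37), 4 of macrophages and monocytes (2.46), 4 of dendritic cells (2.19), 2 of platelets (3.00), 3 of neutrophils (4.66) and 3 of erythroid cells (2.64). The leading markers of these lists were Cr2 and Ms4a1, Slc40a1 and Aif1, Cd83 and H2-Oa, Clec1b and Treml1, Ngp and S100a9, and Hba-a1 and Hbb-bs. All 20 were called positive by limma's gene test, where 33.2% of all genes were called positive and 37.1% negative. The marker lists were chosen with earlier results of these data known. T cell genes had also served to settle the direction in earlier work on these data, so their signs are not independent evidence for it. No dye swap is labelled, so what the dyes add and what the RNAs differ by cannot be told apart. The log base is not stated, so each fold is computed both in base 2 and in natural logs. Exactly 0 was deposited for 24.2% to 26.8% of the probes of an array and was read as no measurement. In RNA from a whole organ, fewer cells of a type and less RNA per cell cannot be told apart.

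All 9 measured probes differed from 0 in limma's test, 8 of them positive and 1, that of Cd3d, negative. Over all probes 32.3% were called positive and 36.0% negative by the same rule, so that passing the test in either direction was common on these arrays. The size of the ratios set these probes apart from that background more than the calls did: their median was 2.24, against -0.033 for all measured probes, and their median absolute size was 2.24, against 0.37. The members were chosen with earlier results of these data known, so this gap in size is not independent evidence. When limma tested for ratios beyond 1.5-fold in base 2 (its treat function), the same 8 probes were positive and Cd3d was negative, where 10.3% and 8.72% of all probes were called. The sign was the same on the 3 arrays for each of the 9 probes. Because the labels name 1 product for each RNA on all 3 arrays, the p-values reflect spread between arrays alone, which may be technical.

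**Figure D1:**
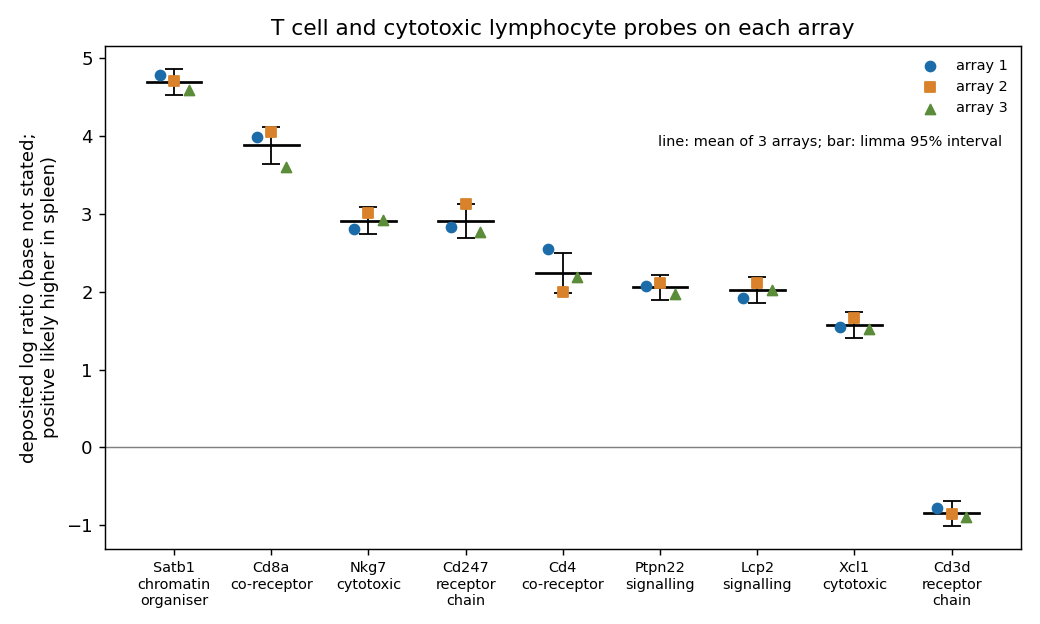
The deposited log ratio (vertical axis, base not stated) of each measured probe on arrays 1, 2 and 3, with the mean of the 3 arrays as a line and limma's 95% interval as a bar. Satb1 lies highest with a mean of 4.69, and Cd3d, with a mean of -0.85, is the 1 probe below 0.

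The co-receptors were both positive, and Cd8a was the higher ratio. Cd8a, the alpha chain of the CD8 co-receptor of cytotoxic T cells, which some dendritic cells also carry, had log ratios of 3.99, 4.05 and 3.61 on arrays 1 to 3. The mean was 3.88 ± 0.24 (SD, n = 3; 95% interval 3.64 to 4.12), which is 14.7-fold in base 2 and 48.4-fold in natural logs, with a limma adjusted p of 3.19e-07. Cd4, the co-receptor of helper T cells, which in mice is also found on some dendritic cells, had 2.55, 2.00 and 2.19. Array 1 was the high one here and array 2 the low one, whereas array 3 was lowest for Cd8a. The mean of Cd4 was 2.24 ± 0.28 (SD, n = 3; 95% interval 1.98 to 2.50), or 4.74-fold in base 2 and 9.43-fold in natural logs, with a limma adjusted p of 4.41e-06. The SD of Cd4 was the largest of the 9 probes and larger than that of 90.9% of all measured probes.

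Within each array the ratio of Cd8a exceeded that of Cd4, by 1.44, 2.05 and 1.42, and the values of the probes did not overlap. The difference averaged 1.64 ± 0.36 (SD, n = 3). An exact sign-flip test over 3 arrays cannot give a two-sided p below 0.25, so no difference between genes is called here. A difference between ratios compares spleen with the reference for each gene, and does not say which gene had more RNA in spleen.

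The receptor chains went in opposite directions. Cd247, the zeta chain, which carries the most signalling motifs of the receptor complex and also serves receptors of natural killer cells, had log ratios of 2.84, 3.13 and 2.76. All 3 values lay well above 0, with array 2 highest. Their mean was 2.91 ± 0.20 (SD, n = 3; 95% interval 2.70 to 3.12), or 7.51-fold in base 2 and 18.3-fold in natural logs, with a limma adjusted p of 6.20e-07. Cd3d, the CD3 delta chain, had -0.78, -0.86 and -0.90, which places it on the reference side on each array. This was the tightest of the 9 probes, with a mean of -0.85 ± 0.059 (SD, n = 3; 95% interval -1.01 to -0.69), 1.80-fold lower in base 2 and 2.33-fold lower in natural logs, and a limma adjusted p of 4.53e-05. Cd3g, the CD3 gamma chain and no member of the set, was measured by 1 probe and had 1.83, 1.91 and 1.46, with a mean of 1.73 ± 0.24 (SD, n = 3) and a limma adjusted p of 9.29e-06 among all probes. The ranges of the 3 chains did not overlap: Cd247 exceeded Cd3g by 1.17 ± 0.15 and Cd3g exceeded Cd3d by 2.58 ± 0.20 (SD, n = 3 each). Each of these chains rests on 1 probe, and whether the Cd3d probe binds only Cd3d RNA was not tested.

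Cd3d and Cd3g lie side by side on chromosome 9 and are read in opposite directions from neighbouring starts, so their start regions are shown with that of Cd247, because the delta and gamma chains of 1 complex differed in sign. The sequences are from RefSeq (GRCm38.p6), 5′ to 3′ on the gene's strand, from 250 bases before to 50 bases after the start. Capitals mark the ETS-type letters AGGAAG and the E-box CANNTG on either strand, which do not overlap each other in these 3 windows. The windows are chr9:44981536-44981835, plus strand for Cd3d, chr9:44980382-44980681, minus strand for Cd3g and chr1:165788431-165788730, plus strand for Cd247.
Cd3d: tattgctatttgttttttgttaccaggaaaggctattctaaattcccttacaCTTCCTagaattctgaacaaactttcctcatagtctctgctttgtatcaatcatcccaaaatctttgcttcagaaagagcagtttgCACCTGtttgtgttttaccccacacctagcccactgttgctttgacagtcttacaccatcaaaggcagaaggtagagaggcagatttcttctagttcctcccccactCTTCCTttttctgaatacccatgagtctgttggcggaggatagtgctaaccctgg
Cd3g: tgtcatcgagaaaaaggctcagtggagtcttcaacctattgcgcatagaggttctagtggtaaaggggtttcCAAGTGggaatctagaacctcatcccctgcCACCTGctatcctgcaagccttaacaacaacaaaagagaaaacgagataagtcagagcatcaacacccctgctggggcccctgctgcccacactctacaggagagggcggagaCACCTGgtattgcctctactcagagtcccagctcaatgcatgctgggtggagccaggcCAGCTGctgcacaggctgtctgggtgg
Cd247: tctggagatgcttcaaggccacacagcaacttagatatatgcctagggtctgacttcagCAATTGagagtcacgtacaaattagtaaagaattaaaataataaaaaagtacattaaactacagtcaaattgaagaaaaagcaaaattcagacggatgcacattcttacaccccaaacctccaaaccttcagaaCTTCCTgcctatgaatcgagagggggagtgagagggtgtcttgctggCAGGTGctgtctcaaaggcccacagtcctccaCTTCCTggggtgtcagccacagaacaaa
AGGAAG was found at 2 places for Cd3d, 2 for Cd247 and 0 for Cd3g, and CANNTG at 1, 2 and 4. The RUNX-type letters TGTGGT were in 0 of the 3 windows. Of the 9 genes, 8 had at least 1 start region in the table, 13 regions in all, and Cd4 had none there. AGGAAG was in 9 of these 13 regions, CANNTG in 10 and TGTGGT in 3 (1 region each of Nkg7, Xcl1 and Ptpn22), against 35.4%, 72.3% and 16.8% of the 32851 regions of the table. The regions of 1 gene can overlap. A match is a match of letters, and neither it nor its absence was tested against the ratios.

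The signalling genes lay close together. Ptpn22, a tyrosine phosphatase that damps receptor signalling in T cells and is present in other leukocytes, had log ratios of 2.08, 2.11 and 1.98. The mean was 2.05 ± 0.070 (SD, n = 3; 95% interval 1.89 to 2.22), or 4.15-fold in base 2 and 7.80-fold in natural logs, with a limma adjusted p of 8.43e-07. Lcp2, the adaptor SLP-76, which joins the receptor's kinases to phospholipase C gamma and also acts in platelets, mast cells and natural killer cells, had 1.92, 2.11 and 2.02. Its mean was 2.02 ± 0.095 (SD, n = 3; 95% interval 1.85 to 2.19), or 4.06-fold in base 2 and 7.54-fold in natural logs, with a limma adjusted p of 1.05e-06. The probes overlapped: Ptpn22 was higher on 1 of 3 arrays and lower on the other two, by 0.15, -0.0037 and -0.047, a difference of 0.034 ± 0.11 (SD, n = 3).

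Satb1, a nuclear protein that organises chromatin in developing T cells and is also present in other tissues, had the highest ratio of the set by 1 of its 2 probes. That probe had log ratios of 4.78, 4.71 and 4.59, with a mean of 4.69 ± 0.098 (SD, n = 3; 95% interval 4.52 to 4.86), which is 25.9-fold in base 2 and 109-fold in natural logs, and a limma adjusted p of 6.72e-08. Only 22 of the 11086 measured probes had a higher mean. The other probe of Satb1 was deposited as 0 on all 3 arrays and gives no measurement. If its 0 were a value, the mean over both probes would be 2.35, with a limma adjusted p of 0.0020. The annotation ties the probes to different sequence records, and which part of the transcript each covers is not used here.

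The cytotoxic cell genes were both positive. Nkg7, a granule membrane protein of natural killer cells and cytotoxic T cells, had log ratios of 2.80, 3.01 and 2.92. The mean was 2.91 ± 0.10 (SD, n = 3; 95% interval 2.74 to 3.08), or 7.51-fold in base 2 and 18.3-fold in natural logs, with a limma adjusted p of 2.85e-07. Xcl1, the chemokine lymphotactin, which activated CD8 T cells and natural killer cells release and which attracts cross-presenting dendritic cells, had 1.54, 1.67 and 1.51. Its mean was 1.57 ± 0.082 (SD, n = 3; 95% interval 1.41 to 1.74), or 2.98-fold in base 2 and 4.83-fold in natural logs, with a limma adjusted p of 2.88e-06. Nkg7 exceeded Xcl1 on each array, by 1.34 ± 0.070 (SD, n = 3), and the probes did not overlap.

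The value of Xcl1 moved when the narrowest running median along the probe numbers was removed. With a running median over 5 probe numbers on either side removed from each array, its mean was 0.73 (limma adjusted p = 0.0012), and no other member moved by over 1.5 times in that setting. It was 1.37, 1.34 and 1.34 with 10, 20 and 40 probe numbers. The 7 measured probes within 5 numbers of it had means from -0.60 to 3.61 with a median of 0.57. Pla2g2d, a secreted phospholipase, was the 1 of these 7 above Xcl1. Whether these neighbours share a trend on the array or are themselves higher in spleen was not tested.

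**Figure D2:**
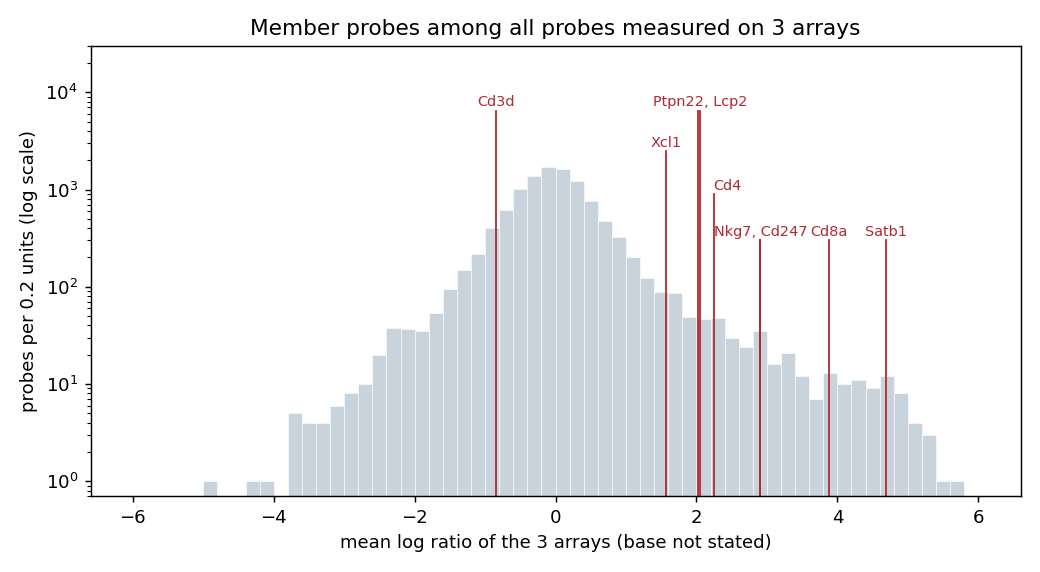
Number of probes (vertical axis, log scale) by mean log ratio of the 3 arrays (horizontal axis, base not stated) for the 11086 measured probes, with a red line at the mean of each member. The 8 positive members lie in the upper tail, from Xcl1 with 453 probes above it to Satb1 with 22, and Cd3d has 962 probes below it.

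Seen against all measured probes, the positive members lay in the upper tail, which describes genes chosen with earlier results of these data known. The number of probes with a higher mean was 22 for Satb1, 64 for Cd8a, 143 for Nkg7, 144 for Cd247, 259 for Cd4, 298 for Ptpn22, 302 for Lcp2 and 453 for Xcl1. Even Xcl1 exceeded 95.9% of the measured probes. Cd3d was less extreme, with 962 probes, or 8.68%, below it.

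The order of the members was largely the same on each array. Satb1 was the first, Cd8a the second, Xcl1 the eighth and Cd3d the last on all of them. Nkg7 and Cd247 changed places between arrays and differed by 0.00041 ± 0.14 (SD, n = 3), less than the spread. Cd4, Ptpn22 and Lcp2 also overlapped: Cd4 was above Ptpn22 on 2 arrays and below it on array 2, with a difference of 0.19 ± 0.29 (SD, n = 3). The ranges of the other neighbours in this order did not overlap. The gaps were 0.81 ± 0.16 from Satb1 to Cd8a, 0.97 ± 0.25 from Cd8a to Nkg7, 0.67 ± 0.43 from Cd247 to Cd4, 0.45 ± 0.062 from Lcp2 to Xcl1 and 2.42 ± 0.10 from Xcl1 to Cd3d (SD, n = 3 each).

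The median SD of the members was 0.098, against 0.119 for all measured probes and 0.139 for the 762 probes with a mean of at least 1.5 in size. Members ranged from 0.059 for Cd3d to 0.28 for Cd4. Array 3 held the lowest value for 6 of the 9 probes and the highest for none of them, while array 2 held the highest for 6. The median deviation of the members from their means was 0.023, 0.093 and -0.059 on arrays 1 to 3, although the arrays' medians over all measured probes were alike at -0.028, -0.029 and -0.027. Leaving out any 1 array kept the sign and the call of all 9 probes.

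The wider T cell and cytotoxic lists mostly pointed the same way, as far as they could be measured. Of 79 genes in 5 lists, 19 had a named probe and 17 were measured, the 9 members among them. Limma's gene test, on the mean of a gene's measured probes, called 14 of the 17 positive and 3 negative, where 33.2% and 37.1% of all 6077 genes were called. Their median was 1.57, against -0.033 for all genes. Without the members, 6 of 8 genes were positive and 2 negative, with a median of 1.20. The lists, like the members, were chosen with earlier results of these data known.

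**Figure D3:**
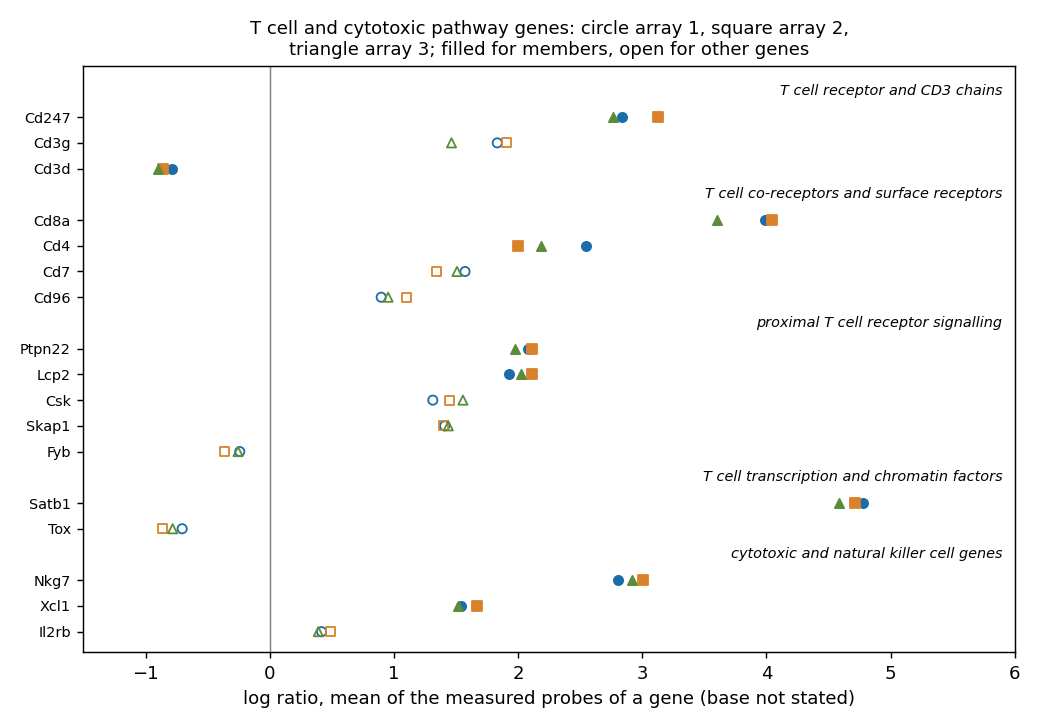
Log ratio (horizontal axis, base not stated) of the 17 measured genes of the 5 lists on arrays 1, 2 and 3, filled for members and open for other genes. Genes lie right of 0 except Cd3d, Fyb and Tox, and Satb1, at 4.69, and Cd8a, at 3.88, are farthest to the right.

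Among receptor and CD3 chains, 3 of 9 genes were measured, 2 of them positive (Cd247 and Cd3g) and 1 negative (Cd3d). Among co-receptors and surface receptors, 4 of 18 were measured and all 4 were positive. Besides the co-receptors these were Cd7, an immunoglobulin superfamily protein of T and natural killer cells, with a mean of 1.47 ± 0.12, and Cd96, a receptor of the same cells, with 0.98 ± 0.10 (SD, n = 3 each). Cd69, an early activation marker, was deposited as 0. The probe of Cd7 lies 3 numbers from that of Cd4, and with a running median over 5 probe numbers removed the call of Cd7 ended (0.45, limma adjusted p = 0.0646) while Cd4 kept its call at 1.80.

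Of 19 genes of proximal receptor signalling, 5 were measured, 4 positive and 1 negative. Csk, the kinase that holds Lck inactive and that Ptpn22 binds, had 1.31, 1.45 and 1.56, with a mean of 1.44 ± 0.12 (SD, n = 3), and Skap1, an adaptor of integrin activation, had 1.41, 1.40 and 1.44, with 1.42 ± 0.021 (SD, n = 3). Fyb, the adaptor that binds Skap1 and Lcp2, was negative over 5 probes with a mean of -0.29 ± 0.067 (SD, n = 3) and a limma adjusted p of 0.0056 among genes. Its probes had means from -0.50 to -0.21, and 4 of the 5 passed the test among probes, where 36.0% of all probes were called negative. All but 1 of the Fyb probes are tied to the same sequence record, so they are not 5 separate measures. The kinase Fyn was deposited as 0. Lcp2, Ptpn22, Csk and Skap1 were thus positive and Fyb negative, where 33.2% and 37.1% of all genes were called. Lcp2 and Ptpn22 are members of the set, and a joint pattern of these genes was not tested.

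Of 14 transcription and chromatin factors, 2 were measured, and they differed in sign: Satb1 was positive, and Tox, a nuclear protein of T cell development, had -0.71, -0.86 and -0.78, with a mean of -0.78 ± 0.079 (SD, n = 3) and a limma adjusted p of 3.85e-05 among genes. Of 19 cytotoxic and natural killer cell genes, 3 were measured and all were positive. Il2rb, the interleukin 2 receptor beta chain, was the smallest at 0.42, 0.49 and 0.39, with a mean of 0.43 ± 0.050 (SD, n = 3) by 1 of its 2 probes, the other being deposited as 0. Granzymes, perforin and the killer cell receptors on this list had no named probe here. In the test beyond 1.5-fold, 13 of the 17 genes were positive and 2 negative, where 10.3% and 9.58% of all genes were called, and Il2rb and Fyb were not called.

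Gene neighbours on the chromosome were compared where they were measured, which was the case for 5 of 18 protein-coding neighbours of the 9 members in RefSeq (GRCm38.p6). Besides Cd3g beside Cd3d, Creg1 beside Cd247 had a mean of 1.67 ± 0.10 and Dpt beside Xcl1 had 1.29 ± 0.093 (SD, n = 3 each), both positive in limma's gene test (adjusted p = 1.26e-06 and 3.73e-06). Foxi1 beside Lcp2, at 0.041, and Cldnd2 beside Nkg7, at 0.11, did not pass (limma adjusted p = 0.573 and 0.150).

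Of 8 T cell markers, 5 were measured, and 4 of these are members of the set, so the markers give no independent check of its label. Cd3g, the 1 marker that is no member, was positive, as were 33.2% of all genes. The 2 cytotoxic cell markers that were measured, Nkg7 and Xcl1, are both members. Several members are also made by B cells, dendritic cells, platelets or myeloid cells. The markers of these cells, together with those of erythroid cells, were positive in 20 of 20 cases, where 33.2% of all genes were called positive. The signs of these 20 markers also served to set the direction of the ratios, so they are not a separate result about these cells. The part of B cells, dendritic cells, platelets and myeloid cells in the ratios of Satb1, Lcp2, Ptpn22, Cd4 and Cd8a was not tested.

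**Figure D4:**
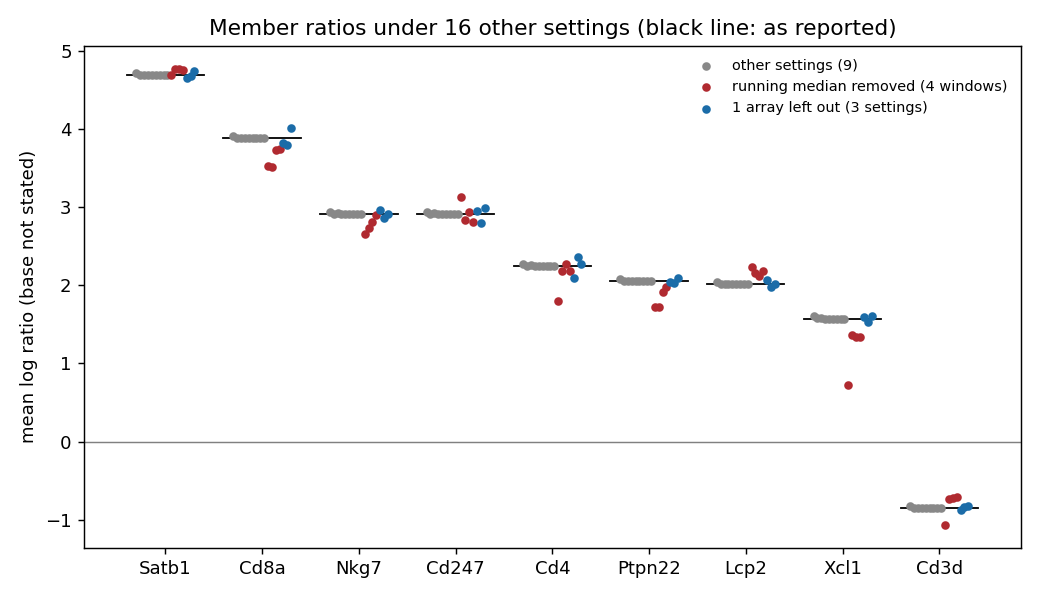
Mean log ratio (vertical axis, base not stated) of each member's measured probe under 16 other settings, with the reported mean as a black line. Each member stays on its side of 0, though settings that change only the test or threshold leave its mean as reported. The largest shift is that of Xcl1, from 1.57 to 0.73 with a running median over 5 probe numbers removed.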

How the data were processed

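Spleen cRNA (Cy5) and reference cRNA (Cy3) were compared on 3 arrays. The authors deposited 1 signed log ratio per probe and array. For their background correction, normalization, base and numerator the sources used here give nothing. Gene names came from the platform annotation (12336 probes with 1 symbol, 61 with several, 3876 not listed). The gene IDs of 12228 probes with 1 symbol were found in RefSeq (GRCm38.p6), with 0 symbols changed.

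Exact 0 was read as no measurement. Probes measured on all 3 arrays (11086), and the means of the probes of 6077 genes, were each compared with 0 by limma 3.58.1 (R 4.3.3), using an intercept fit with moderated variance. The test was two-sided, with Benjamini-Hochberg adjustment over all probes or genes and a threshold of 0.05. The script was tested on simulated data. Named were all members, up to 3 further genes per list past the gene test and the 2 leading markers of each other cell type. The members and lists were chosen with earlier results of these data known. Probe intensities were not analysed here, and the number of arrays limits the precision. Plots used matplotlib 3.10.9 (Python 3.11.15). Alternatives covered scaling, the reading of 0, thresholds, moderation, trends along probe numbers and leaving out arrays.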

Additional observations from a re-analysis of the deposited data

How the results depend on the processing

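The 9 probes of the members kept their direction and their side of the threshold under all 16 other settings: each array centred, scaled or quantile normalized, 0 kept as a value, probes measured on at least 2 arrays, a stricter threshold of 0.01, the test beyond 1.5-fold, robust or no moderation, a running median over 5, 10, 20 or 40 probe numbers removed, and each array left out. The mean of each member's measured probe was unchanged with 0 kept as a value or with probes on at least 2 arrays. It was also unchanged under the other threshold or test and under robust or no moderation. Only the call of these probes could have moved in those settings, and scaling an array cannot change a sign. With 0 kept as a value, the mean over both probes of Satb1 was 2.35. The largest limma adjusted p was 0.0246, for Cd4 without moderation. Taking the median over a gene's probes, or dropping the probe with the largest ratio where a gene had several measured, gave 8 positive and 1 negative member genes as before, and could not do otherwise through the members themselves, which have 1 measured probe each. Means of the measured probe ranged from 4.65 to 4.77 for Satb1 and from 3.52 to 4.02 for Cd8a. They ranged from 1.80 to 2.37 for Cd4 and from -1.07 to -0.71 for Cd3d. Of the 17 genes of the lists, 3 lost a call in 1 setting each: Fyb and Il2rb in the test beyond 1.5-fold and Cd7 with a running median over 5 probe numbers removed. The running median includes the probe's own ratio, so it can take away part of a true difference. Natural logs in place of base 2 change the folds and no test against 0. No intensities were analysed, so signal over background limits the reading of small ratios by an amount not known here.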
